A study of Mus musculus with 9 samples.

Results

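The 159 genes described here were high in proliferating satellite cells and low both in freshly isolated cells and in myotubes. They were chosen from the 45706 genes of the deposited table by a rule on stage means. A member was an autosomal protein-coding gene with a mean of at least 100 normalized read counts in proliferating cells, and its proliferating mean, with 1 added, was at least 4 times both other stage means with 1 added. Names that start with Hist, Mcm, Cenp or Kif were left out. Satellite cells are the resident stem cells of skeletal muscle, and they came from C57Bl6 mice aged 12 to 20 weeks with no transgene or mutation. They were sampled at 3 stages: freshly isolated from muscle, proliferating for at least 3 days in growth medium (20% FCS, with FGF-2 at 2.5 ng/ml), and as myotubes after a further 6 days in 2% horse serum. Each stage had 3 libraries from different animals, 9 in all, and all cultured cells had been outside the animal for days while the freshly isolated cells had not been grown at all.

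In resting muscle, satellite cells are held out of the cell cycle. After injury or in culture they enter it, divide as myoblasts, then leave it for good and fuse into multinucleate myotubes that build the contractile apparatus. A gene used only during division is therefore low at both ends of this course. The best known of these code for the machinery that copies DNA and separates chromosomes, which the E2F, B-Myb and FoxM1 transcription factors switch on in turn. Dividing myoblasts also have their own set of surface receptors, secreted signals and enzymes, of which fewer are known in this tissue.

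The libraries summed to between 17751754 and 26209153 normalized read counts, a unit that the authors scaled between libraries and rounded. The low values put 1 read at 0.748 to 2.18 of these units. Freshly isolated replicate 1, where 1 read was worth the most, and proliferating replicate 1 stood apart from the other libraries of their stages. Pax7, a transcription factor of satellite cells, had 15700, 11694 and 12892 normalized read counts in freshly isolated cells, 3330, 2668 and 2556 in proliferating cells and 1254, 1645 and 1192 in myotubes. The 6 satellite cell and myoblast markers, Pax7 among them, summed to 44758 to 49001, 36124 to 41323 and 21389 to 21797 at these stages. From freshly isolated to proliferating cells the means of Pax7, Vcam1, Myf5 and Cdh15 fell, and those of Myod1 and Itga7 rose. Myod1 had 5532, 6876 and 4938, then 20690, 21446 and 21302, and then 6955, 7315 and 6858. The summed level of 6 markers of differentiating muscle was 688 to 2075 in freshly isolated cells, 10130 to 56670 in proliferating cells and 535814 to 643162 in myotubes. Marker lists of other cell types differed in direction. The sum of 6 fibroblast markers was 25 to 37 in proliferating and 2871 to 4459 in freshly isolated cells. The 8 endothelial markers summed to 98 to 143 in proliferating and 190 to 295 in freshly isolated cells. The 6 pericyte and smooth muscle markers summed to 9121 to 21153 in proliferating and 3367 to 4575 in freshly isolated cells. All libraries are bulk RNA, so fewer cells that use a gene and less of its RNA per cell cannot be told apart.

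Of the 9133 autosomal protein-coding genes at a proliferating mean of at least 100, 1487 met the 4-fold criterion over freshly isolated cells, 293 met it over myotubes and 164 met both. The names removed 5 genes, all of the Mcm helicase family (Mcm3, Mcm4, Mcm5, Mcm6 and Mcm10). No Hist, Cenp or Kif gene met both criteria, among 42, 19 and 32 that reached the level. The criterion over myotubes was the tighter one for 119 of the 159 members and the one over freshly isolated cells for 40. Just inside the threshold, with the smaller of the 2 ratios at 4.007 to 4.037, stood Ptprn, Cthrc1 and the mitotic kinase Nek2. Just outside, at 3.962 to 3.998, stood Cdk6, Kcnf1 and Pold1, of which Cdk6 is a cyclin-dependent kinase of G1 phase and Pold1 the catalytic subunit of DNA polymerase delta.

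The stage means chose the members, so their height in proliferating cells is a description. In all 159 the lowest proliferating library was above each of the other 6 libraries, an order that the rule on these same values favours. The share of other genes with this order is not given, and the shares called that follow are another measure. Over all 17291 genes tested, the limma model called 37.6% higher in proliferating than in freshly isolated cells, and 25.5% lower and 28.6% higher in myotubes than in proliferating cells. Among the 9133 genes at that level the first of these shares was 55.3%. In 73 members the lowest proliferating library was at least 4 times the highest of the other 6, with 1 added to each. The median member had 972 normalized read counts in proliferating cells, 49.0 in freshly isolated cells and 148 in myotubes. The freshly isolated mean was under 10% of the proliferating mean in 100 members, the myotube mean in 34, and both in 26.

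**Figure D1:**
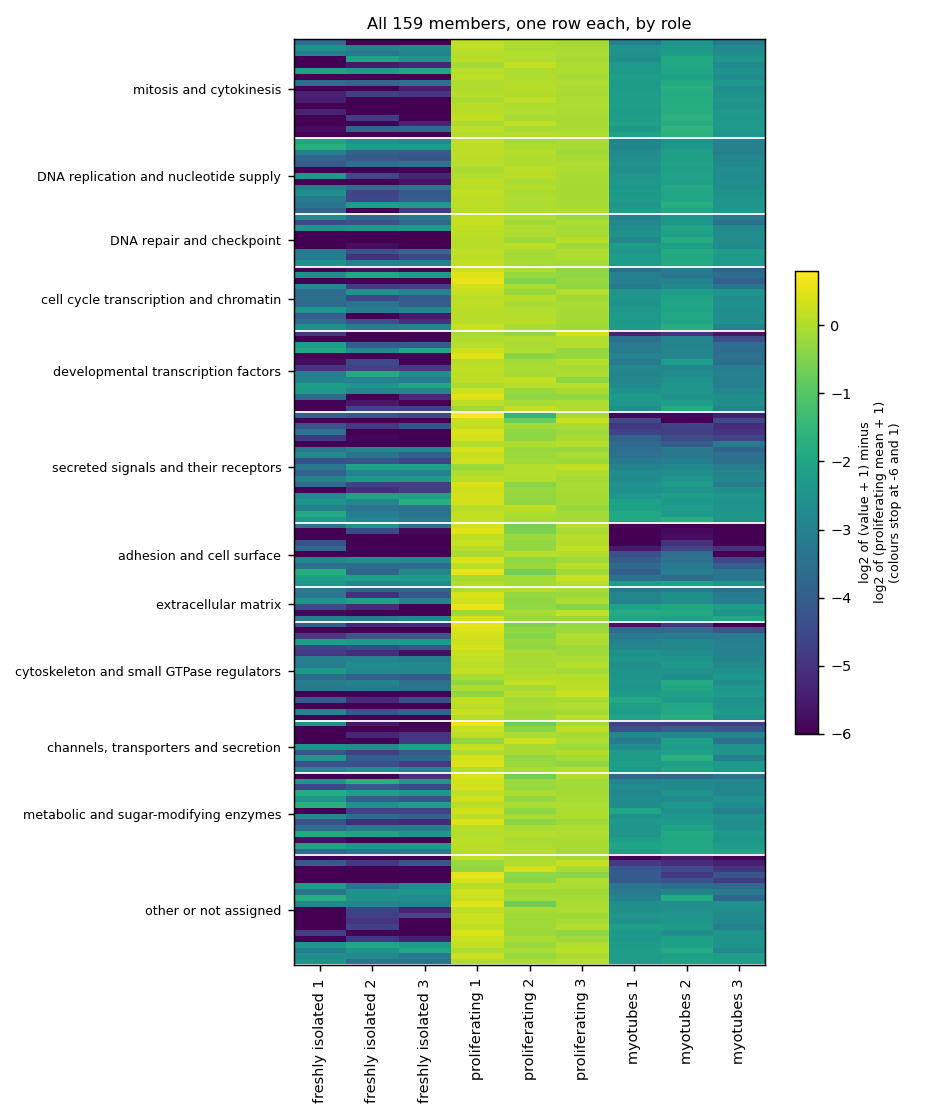
Each row is 1 of the 159 members, grouped by role, and each column 1 of the 9 libraries. Colour gives the log2 of the normalized read count (1 added) minus the log2 of the proliferating mean (1 added), stopped at -6 and 1. The 3 proliferating columns are the brightest in each role group, most rows of the mitosis group are dark in freshly isolated cells, and many myotube cells of the adhesion group are dark, where the median share left in myotubes was 4.02%.

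The members were sorted by known function into 12 role groups after their values had been seen. Of these, 4 groups with 50 members belong to the cell cycle: 17 of mitosis and cytokinesis, 13 of DNA replication and nucleotide supply, 9 of DNA repair and checkpoint, and 11 of cell cycle transcription and chromatin. The other 109 members include 19 secreted signals and receptors, 17 cytoskeleton and small GTPase regulators, 14 developmental transcription factors, 14 metabolic and sugar-modifying enzymes, 11 adhesion and cell surface proteins, 9 channels and transporters, and 6 matrix proteins. A further 19 were not assigned. The median share left in myotubes was 22.4% for mitosis, 18.9% for replication, 19.3% for repair and 19.5% for cell cycle transcription and chromatin. Close to these stood matrix at 18.5%, channels at 17.9%, metabolic enzymes at 17.7%, cytoskeleton at 17.2% and unassigned members at 16.3%. It was 13.5% for developmental transcription factors, 12.0% for secreted signals and receptors and 4.02% for adhesion.

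**Figure D2:**
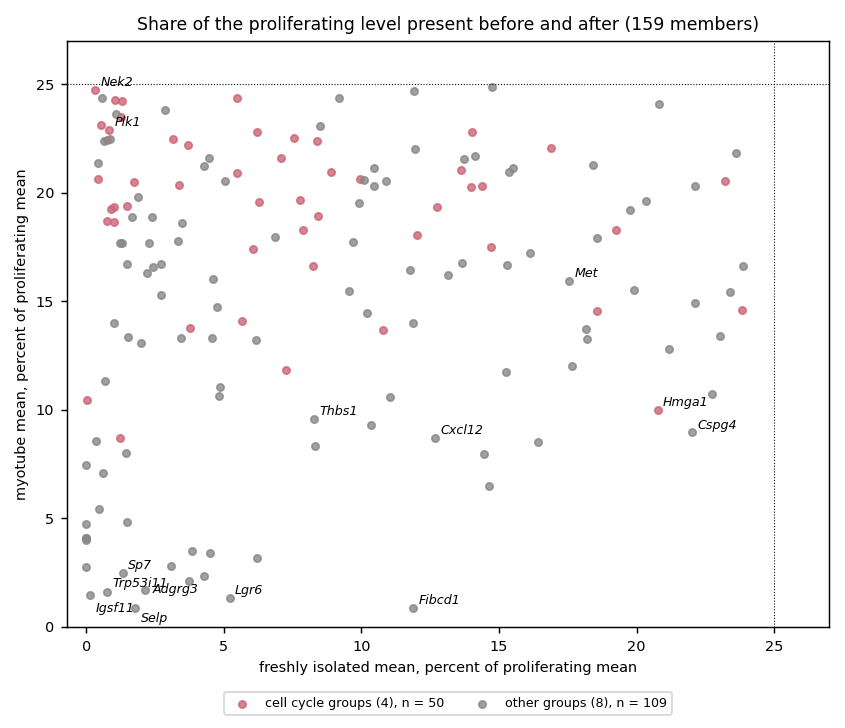
Each point is 1 of the 159 members. The x axis gives the freshly isolated mean and the y axis the myotube mean, each as a percent of the proliferating mean, and the dotted lines mark 25%. Members of the cell cycle groups (red, n = 50) lie mostly high on the y axis, up to 24.7% for Nek2. Members of the other groups (grey) reach as high, up to 24.9% for Ptprn, while Fibcd1, Selp, Lgr6, Igsf11, Trp53i11 and Adgrg3 lie under 2%.

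The adhesion and cell surface genes had the lowest median share left in myotubes of the 12 groups. Igsf11 (chr16:38892671-39027159, GRCm38), an immunoglobulin superfamily adhesion molecule, had 0, 0 and 2 normalized read counts in freshly isolated cells, 482, 371 and 457 in proliferating cells and 6, 7 and 6 in myotubes. Selp (chr1:164115264-164150026) codes for P-selectin, the adhesion receptor by which platelets and endothelium catch leukocytes. It had 0, 9 and 3 in freshly isolated cells, 312, 153 and 209 in proliferating cells and 2, 3 and 1 in myotubes. The proliferating libraries were thus the only ones with more than 10 units of either gene. Adgrg3 (chr8:95017692-95045250), an adhesion G protein-coupled receptor known from neutrophils, had 26, 3 and 5 in freshly isolated, 616, 429 and 536 in proliferating and 6, 15 and 6 in myotube libraries.

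Selp and Adgrg3 are best known outside muscle, so the markers of those cells stand beside them. The summed level of 6 neutrophil markers was 20 to 30 in freshly isolated cells, 0 to 1 in proliferating cells and 0 to 2 in myotubes, and S100a8, S100a9, Csf3r and Elane were listed at 0 in all 3 proliferating libraries. The sum of 6 platelet and megakaryocyte markers was 626 to 898 in freshly isolated cells, 63 to 69 in proliferating cells and 130 to 164 in myotubes, and Gp9 and Ppbp were listed at 0 in the proliferating libraries. The 8 leukocyte markers summed to 662 to 702, 67 to 89 and 247 to 260 at the same 3 stages. The 8 endothelial markers summed to 190 to 295, 98 to 143 and 107 to 138 at these stages, so their proliferating and myotube ranges overlapped. Of these, Kdr had 22, 18 and 18 in freshly isolated cells, 52, 16 and 26 in proliferating cells and 4, 3 and 5 in myotubes, with its highest value in proliferating replicate 1, as for Selp. Kdr was the only one of the 8 with its highest mean in proliferating cells. Pecam1, Esam, Sele, Cdh5, Tie1 and Emcn had theirs in freshly isolated cells, and Vwf in myotubes. The part of other cells in the levels of Selp and Adgrg3 was not tested. Antisense and long non-coding genes overlap Selp on the other strand, and whether reads were counted by strand is not given in the sources used.

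Fibcd1 (chr2:31813290-31846005), a membrane receptor with a fibrinogen-like domain that binds chitin, had a different shape. Its values were 37, 74 and 38 in freshly isolated cells, 532, 274 and 449 in proliferating cells and 6, 3 and 2 in myotubes. The freshly isolated mean was 11.9% of the proliferating mean and the myotube mean 0.876%, the lowest share left in myotubes of all 159 members. Alcam, an immunoglobulin superfamily adhesion molecule, and Cspg4, a proteoglycan also known as NG2, leaned the same way. Alcam averaged 128 ± 7.37 in freshly isolated cells, 872 ± 251 in proliferating cells and 56.7 ± 21.1 in myotubes (SD, n = 3 each). Cspg4 had 414, 410 and 371 in freshly isolated cells, 1683, 1625 and 2123 in proliferating cells and 162, 148 and 177 in myotubes. Cspg4 is also on the list of pericyte and smooth muscle markers, and that list as a whole did not follow it: the sum of the 6 markers was 3367 to 4575 in freshly isolated cells, 9121 to 21153 in proliferating cells and 63906 to 65444 in myotubes, with Acta2 as the largest term.

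The other surface proteins were Cldn4, a tight junction claudin, Itgb4, the integrin beta chain of hemidesmosomes, Adgra1, Cdhr5 and Sdc3. Cldn4 had 26, 5 and 3 in freshly isolated cells, 387, 298 and 413 in proliferating cells and 7, 14 and 10 in myotubes. Itgb4 had 187, 172 and 170, then 2320, 1818 and 2215, and then 168, 222 and 138 at the same 3 stages, so its 2 low stages overlapped. Adgra1, another adhesion G protein-coupled receptor, was listed at 0 in the 3 freshly isolated libraries and had 132, 148 and 143 in proliferating cells and 6, 11 and 0 in myotubes. Sdc3, a heparan sulfate proteoglycan of satellite cells, averaged 5463 ± 388 in proliferating cells and kept 21.0% of that level in myotubes.

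**Figure D3:**
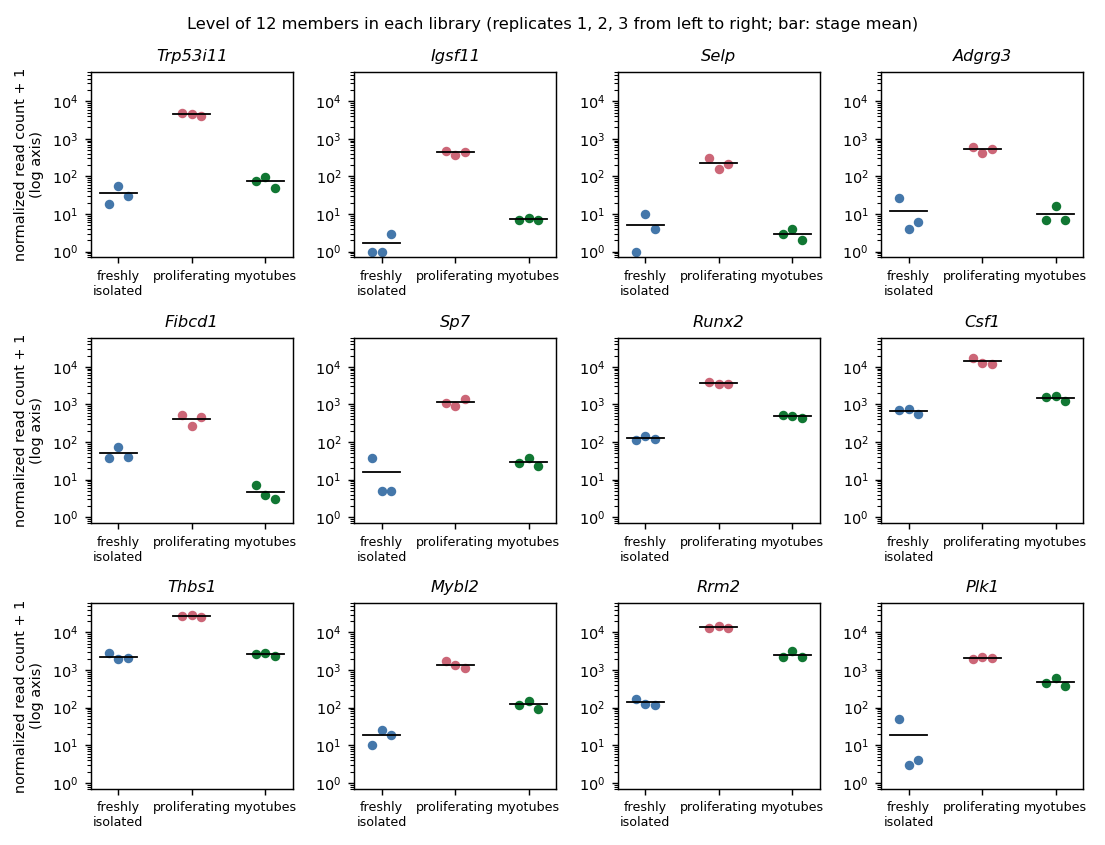
Normalized read count (1 added, log axis) of 12 members in each of the 9 libraries, with replicates 1 to 3 from left to right and a bar at the stage mean. The 3 proliferating points lie above all others in each panel; myotubes lie below freshly isolated cells for Fibcd1 and far above them for Plk1 and Rrm2.

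Among secreted signals, Csf1, the growth factor of macrophages, had the highest read count. It had 712, 743 and 559 normalized read counts in freshly isolated cells, 17205, 12491 and 12026 in proliferating cells and 1544, 1662 and 1230 in myotubes. Il34, which codes for the other ligand of the same receptor, was also a member, with 24, 18 and 43, then 180, 113 and 125, and then 33, 26 and 23. Cxcl12, a chemokine that attracts cells carrying Cxcr4, averaged 436 ± 67.2 in freshly isolated cells, 3443 ± 928 in proliferating cells and 300 ± 58.9 in myotubes (SD, n = 3 each). Angpt2, an angiopoietin, averaged 175 ± 40.5 in proliferating cells, and Fam19a5, a small secreted protein, 1692 ± 204.

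Receptors of the group covered several signalling families. Met, the receptor of hepatocyte growth factor, through which satellite cells are activated, had 1553, 2220 and 2237 in freshly isolated cells, 12307, 11480 and 10505 in proliferating cells and 1701, 2147 and 1621 in myotubes. The freshly isolated and myotube libraries of Met overlapped. Nrp2, a receptor of semaphorins and vascular growth factors, averaged 66.0 ± 26.1, 2425 ± 501 and 406 ± 17.0 at the 3 stages (SD, n = 3 each). Efnb2, a membrane-bound ephrin, averaged 2098 ± 289 in proliferating cells, and Sema7a, a membrane-anchored semaphorin, 493 ± 148. Lgr6, a receptor for R-spondins of the Wnt pathway, had 11, 9 and 7 in freshly isolated cells, 301, 59 and 158 in proliferating cells and 2, 2 and 3 in myotubes. Its proliferating libraries differed 5.10-fold, the widest spread within that stage of all members. Lrp8, a receptor for reelin, and Reln, which codes for reelin itself, were both members, at 1647 ± 300 and 899 ± 244 in proliferating cells. Il18rap, a subunit of the interleukin-18 receptor, averaged 296 ± 70.4 there.

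The 14 developmental transcription factors included several known from bone. Runx2, required for osteoblast formation, had 113, 141 and 122 in freshly isolated cells, 4002, 3466 and 3399 in proliferating cells and 524, 487 and 433 in myotubes. Sp7, or osterix, which acts in the same lineage, had 37, 4 and 4, then 1060, 921 and 1429, and then 27, 36 and 22 at the same stages. Dlx3 and Dlx2, homeobox factors of skeletal and craniofacial development, averaged 374 ± 1.73 and 692 ± 236 in proliferating cells and stood at 0.356% and 0.674% of that in freshly isolated cells. Others are known from other lineages. Gata2, of blood stem cells, had 20, 26 and 18 in freshly isolated cells, 1407, 1228 and 1259 in proliferating cells and 241, 282 and 212 in myotubes. Myb, Foxc2, Foxf2, Ebf1, Smad9, Tox2, Arnt2 and Tfap4 had proliferating means of 188 to 1281. Runx2 has an antisense gene on the other strand, and without a stated strand setting their reads may mix.

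Matrix members were led by Thbs1, the thrombospondin gene, with the highest read count of all 159. It had 2784, 1985 and 2097 in freshly isolated cells, 27340, 28960 and 26562 in proliferating cells and 2726, 2883 and 2327 in myotubes. Tnc, which codes for tenascin-C, a matrix protein of injured muscle, had 233, 140 and 62, then 7362, 4092 and 3775, and then 1185, 1327 and 1114. Cthrc1, a secreted collagen-like protein, averaged 172 ± 24.8 in proliferating cells. Per kilobase of exon, the scale on which levels of different genes can be set side by side, Rrm2 was first at 4954 in proliferating cells, then Thbs1 at 4548 and Csf1 at 2633.

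Cytoskeletal members were mostly regulators of small GTPases. Tiam1 and Tiam2 are exchange factors of Rac, Dock8 of Cdc42, and Rin1 and Rin3 of Rab5. Rin3 had 2, 19 and 6 in freshly isolated cells, 1685, 2120 and 2424 in proliferating cells and 439, 483 and 410 in myotubes. Dock8, best known from immune cells, had 57, 25 and 27, then 1422, 675 and 818, and then 18, 30 and 13. Dpysl3, a cytoskeletal protein of growing axons, averaged 131 ± 6.51, 11950 ± 1078 and 2825 ± 756 over the 3 stages (SD, n = 3 each). Eps8, an actin-capping protein, averaged 451 ± 132 in proliferating cells.

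Among channels and enzymes, Kcnn4, a calcium-activated potassium channel, had 0, 0 and 5 in freshly isolated cells, 415, 269 and 385 in proliferating cells and 17, 22 and 19 in myotubes. Ano1, a calcium-activated chloride channel, had 31, 3 and 1, then 285, 111 and 169, and then 6, 6 and 6. Slc7a11, the cystine and glutamate exchanger, averaged 531 ± 160 in proliferating cells, and Gclm, a subunit of the enzyme that starts glutathione synthesis, 2399 ± 508. Both serve glutathione supply. The mitochondrial serine route had 3 members: Sfxn1, which carries serine into mitochondria, Shmt2, which takes a one-carbon unit from it, and Mthfd1l, which acts further on in that pathway. Shmt2 had 390, 487 and 504 in freshly isolated cells, 5231, 5165 and 4631 in proliferating cells and 1093, 1358 and 1206 in myotubes. Sugar-modifying enzymes were Chst2, Chst11, Ndst3, St3gal1 and Fut4, of which the sialyltransferase gene St3gal1 averaged 7868 ± 478 in proliferating cells. Ptgs1, which codes for cyclooxygenase-1, and Ptgir, the receptor for prostacyclin, were also both members, at 392 ± 142 and 142 ± 19.5.

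Of the 19 members without an assigned role, Trp53i11 had the largest smaller ratio of all members. It had 17, 56 and 30 in freshly isolated cells, 4986, 4441 and 4134 in proliferating cells and 73, 96 and 49 in myotubes, and its proliferating mean was 128 times the freshly isolated and 61.4 times the myotube mean, with 1 added to each. Dynap, Macc1 and 1700012B09Rik were listed at 0 in all 3 freshly isolated libraries. Dynap had 1304, 766 and 1011 in proliferating cells and 60, 51 and 35 in myotubes.

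The 17 mitotic members stood at a median of 1.74% of the proliferating mean in freshly isolated cells, with a highest share of 23.2%, and at a median of 22.4% in myotubes. Plk1, a kinase that drives mitotic entry and spindle assembly, had 48, 2 and 3 normalized read counts in freshly isolated cells, 1996, 2259 and 2029 in proliferating cells and 453, 602 and 384 in myotubes. Aurkb, the kinase of the chromosomal passenger complex, had 17, 2 and 3, then 1395, 1299 and 1291, and then 298, 389 and 234. Its partners Incenp and Cdca8 were members too, at 3279 ± 172 and 1801 ± 70.0 in proliferating cells (SD, n = 3 each). Aurka, the spindle pole kinase, had 0, 15 and 52, then 2025, 2341 and 2042, and then 505, 615 and 436. Nek2, a centrosome kinase, had 4, 4 and 10, then 1897, 1880 and 1844, and then 451, 598 and 341. The freshly isolated libraries of Plk1, Aurkb and Aurka disagreed several-fold with each other, while the proliferating libraries of all 4 kinases were close together. Espl1, the protease separase, Sgol1, a protector of cohesion, Ncapd2, a condensin subunit, Cit, a kinase of cytokinesis, Cdc25b, a phosphatase that activates mitotic Cdk, and Troap completed the named members of the group.

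Replication members covered origin licensing, polymerase and nucleotide supply. Rrm2, the small subunit of ribonucleotide reductase that limits deoxynucleotide supply, had 172, 122 and 116 in freshly isolated cells, 13115, 14668 and 13403 in proliferating cells and 2292, 3184 and 2198 in myotubes. Orc1, Cdc6 and Cdt1, which load the Mcm helicase at origins, averaged 346 ± 29.3, 979 ± 71.2 and 1572 ± 155 in proliferating cells. Pole, the leading strand polymerase, averaged 2902 ± 185, Lig1, which seals nicks between fragments, 3597 ± 402, and Dut, which keeps uracil out of DNA, 1765 ± 151. Chaf1a and Chaf1b, which place histones on new DNA, averaged 2049 ± 226 and 629 ± 33.0. Timeless, a protein of the replication fork, kept the most in freshly isolated cells of this group, 23.8% of its proliferating mean.

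Repair members were Brca2, its partner Palb2, Bard1, the partner of Brca1, the Fanconi gene Fanca, the nuclease Exo1, and Topbp1, Trip13, Ankle1 and Aunip. Brca2, which acts in repair by homologous recombination, had 270, 286 and 305 in freshly isolated cells, 1662, 1475 and 1339 in proliferating cells and 238, 362 and 218 in myotubes. Exo1 had 9, 5 and 13, then 1273, 1135 and 1093, and then 206, 265 and 184. Brca2 was thus well above 0 at all stages, and Exo1 close to 0 in freshly isolated cells only.

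The group of cell cycle transcription and chromatin held both regulators that act on these genes and their targets. Mybl2, which codes for B-Myb, had 9, 25 and 18 in freshly isolated cells, 1718, 1365 and 1115 in proliferating cells and 120, 153 and 92 in myotubes. Foxm1 had 218, 127 and 75, then 2659, 2668 and 2345, and then 511, 656 and 436. Hmga2, a chromatin protein of embryonic and dividing stem cells, had 2, 0 and 0, then 5033, 2380 and 2813, and then 412, 433 and 225. Its relative Hmga1 had 281, 470 and 355, then 2437, 1492 and 1398, and then 214, 171 and 147. Both Hmga genes were highest in proliferating replicate 1. Dnmt1, which copies DNA methylation after replication, and Uhrf1, which guides it there, averaged 9494 ± 556 and 3635 ± 298 in proliferating cells. Hells, a chromatin remodeller that aids DNA methylation, averaged 3185 ± 292. Antisense genes overlap Hmga2 and Hmga1 on the other strand.

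The E2F, B-Myb and FoxM1 factors bind short DNA elements near the start of cell cycle genes, so the promoters of members that are high together were searched for such letters. RefSeq windows (GRCm38.p6) from 250 bases before to 50 bases after the start were at hand for 120 of the 159 members, 39 of them of the 4 cell cycle groups. E2F letters (TTTCCCGC, TTTGGCGC, TTTCGCGC or TTTGGGCGC, on either strand) occurred in 9 of the 39 cell cycle members, or 23.1%, in 0 of the 81 other members and in 2.01% of all 27025 genes in the RefSeq table. The stretches of 30 bases around them are shown for these 9, with the matching letters in capitals.
Cdca7: tgcgtcccggcGCGGGAAAgccggtggccc
Hells: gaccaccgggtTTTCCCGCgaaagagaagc
Cdt1: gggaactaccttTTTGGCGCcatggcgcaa
Cdc6: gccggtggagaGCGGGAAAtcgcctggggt
Orc1: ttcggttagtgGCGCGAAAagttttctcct
Brca2: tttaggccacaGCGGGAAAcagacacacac
Topbp1: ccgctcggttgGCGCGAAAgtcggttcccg
Bard1: ccgccgctcagTTTCCCGCtcaggaagttt
Ncapd2: ccatctcgttgTTTGGCGCgtatcctgccc
All 3 licensing genes, Orc1, Cdc6 and Cdt1, are among them. The stretches lie at chr2:72476137-72476166 (Cdca7), chr19:38930917-38930946 (Hells), chr8:122568035-122568064 (Cdt1), chr11:98908002-98908031 (Cdc6), chr4:108579416-108579445 (Orc1), chr5:150522442-150522471 (Brca2), chr9:103305187-103305216 (Topbp1), chr1:71103163-71103192 (Bard1, minus strand) and chr6:125191576-125191605 (Ncapd2, minus strand). The others are on the plus strand, and all are written in the gene's direction. In 8 of the 9 the letters began 8 to 209 bases before the start listed in RefSeq, and in Cdt1 33 bases after it. GENCODE starts differ, and by them the stretches of Cdc6, Hells and Ncapd2 also lie inside the gene. That of Orc1 begins before its GENCODE start (chr4:108579423), but its E2F letters lie after it, inside the gene. The 150 bases before the RefSeq start overlap a GENCODE exon in Cdca7, Hells, Orc1, Topbp1, Bard1 and Ncapd2. For Brca2 the bases after that start were not found in a GENCODE transcript of the gene.

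The element bound by the B-Myb and FoxM1 complexes, the cell cycle genes homology region (CHR, searched as TTTGAA or TTCGAA), was found in 30.8% of the 39 cell cycle windows, 8.64% of the 81 others and 19.4% of all windows. The CCAAT box, bound by NF-Y, was found in 48.7%, 29.6% and 37.9%. The AP-1 letters TGACTCA were in none of the 39, in 6 of the 81 and in 5.17% of all windows. The muscle E-box CAGCTG was in 23.1% of the cell cycle windows, 19.8% of the others and 16.1% of all, and the E-box CAGGTG in 7.69%, 24.7% and 20.0%. Median base composition differed as well, with 59.7% G and C in the cell cycle windows, 64.7% in the others and 52.7% in all, and such letters depend on it. These matches are letters in 1 window per gene and not measured binding.

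Outside the cell cycle, 3 promoters are shown because they hold letters that were searched, in 2 of the 4 genes given with the set and in a gene with a repeated element. The 150 bases searched for Igsf11 and Fibcd1, the other 2 given genes, held none of these letters, which leaves the rest of their windows aside. Those of Igsf11 (chr16:38902195-38902344) lie inside the gene by its GENCODE position and overlap an exon. The bases before its GENCODE start were thus not covered. Slc7a11 is a known target of the stress factor ATF4, and its window held the ATF4 box TGATGCAA on each strand, in the 30 bases at chr3:50443652-50443681 (minus strand). The box occurred in 2 of the 81 windows outside the cell cycle groups and in 0.929% of all.
Slc7a11: gcTGATGCAAacctggagaatTTGCATCAt
The 150 bases before the start of Selp (chr1:164115114-164115263) held 1 CAGGTG E-box, read here as CACCTG, 132 bases before the start. Those of Adgrg3 (chr8:95017542-95017691) held a CAGGTG E-box 133 bases and a CCAAT box, read as ATTGG, 49 bases before it.
Selp: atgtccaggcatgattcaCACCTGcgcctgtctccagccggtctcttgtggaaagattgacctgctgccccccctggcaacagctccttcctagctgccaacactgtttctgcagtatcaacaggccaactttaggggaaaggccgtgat
Adgrg3: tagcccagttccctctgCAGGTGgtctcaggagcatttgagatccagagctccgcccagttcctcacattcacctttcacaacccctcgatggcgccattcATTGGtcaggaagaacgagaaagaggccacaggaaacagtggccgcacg
Neither stretch overlaps an exon in GENCODE.

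Myotubes were compared with freshly isolated cells in limma over all 17291 genes. The rule used the mean of both stages, and its criterion over myotubes was the tighter one for most members, so the counts of members in each direction are shaped by the choice of members and nothing is read from their distance to the shares over other genes. All 159 members passed the filter, which their 3 proliferating libraries alone satisfy. Of the 159, 100 were higher in myotubes than in freshly isolated cells, 13 were lower and 46 were not called (Benjamini-Hochberg adjusted p below 0.05). Those 100 are 62.9% of the members, against 40.2% called higher over all genes tested and 53.1% over the 9133 autosomal protein-coding genes at the same proliferating level. The 13 lower ones are 8.18%, against 37.3% over all genes tested and 30.6% over those 9133. The median log2 change of members was 1.23, against 0.105 over all genes tested and 0.529 over the 9133. The 6 members listed at 0 in all freshly isolated libraries are among the 100, and for them no fold is given; their fitted values all lie above the median. Without freshly isolated replicate 1 and proliferating replicate 1 the counts were 109 and 15.

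The role groups were made after the values had been seen, so their counts are a description. Over all genes tested 40.2% were higher in myotubes and 37.3% lower, and over the 9133 genes 53.1% and 30.6%. Among cell cycle genes, in the mitosis group 14 of 17 were higher in myotubes and none lower, with a median log2 change of 3.70. Nek2 rose to 463 ± 129 in myotubes, against 6.00 ± 3.46 in freshly isolated cells, a log2 change of 6.12 ± 0.31 (SE, limma adjusted p = 4.87e-08). Rrm2 rose to 2558 ± 544 in myotubes, against 136.7 ± 30.75 in freshly isolated cells (log2 change 4.22 ± 0.17, limma adjusted p = 1.17e-08). Plk1 and Aurka rose by 5.82 and 5.76 on the log2 scale, but their size rested on single freshly isolated libraries. Without freshly isolated replicate 1 the change of Plk1 was 7.09 and that of Aurka 4.14, without replicate 2 that of Plk1 was 5.08, and without replicate 3 that of Aurka was 7.01. Replication genes were higher in 10 of 13 cases, lower in 1 and not called in 2, repair genes higher in 7 of 9 and transcription and chromatin genes in 8 of 11. The largest fitted change of all was that of Hmga2, 357 ± 114 in myotubes and 0.667 in freshly isolated cells (log2 change 7.90 ± 0.47, limma adjusted p = 1.31e-07). Its freshly isolated values were 2, 0 and 0, within about 1 read of 0. The size of its change thus depends on the 1 added to each value.

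Outside the cell cycle, several counts of genes called higher lie near the 40.2% over all genes tested or the 53.1% over the 9133. Of the 19 secreted signals and receptors 8 were higher in myotubes, 2 lower and 9 not called. Of the 11 adhesion genes 3 were higher, 3 lower and 5 not called, with a median log2 change of -0.03. Developmental transcription factors were higher in 7 of 14 cases and lower in 2, and cytoskeletal genes higher in 13 of 17 and lower in 1. Channels were higher in 6 of 9 cases, matrix genes in 4 of 6 and unassigned genes in 12 of 19, with none lower, and metabolic enzymes were higher in 8 of 14 and lower in 3. Runx2 was 481 ± 45.8 in myotubes and 125 ± 14.3 in freshly isolated cells, a rise of 1.93 ± 0.13 on the log2 scale (SE, limma adjusted p = 2.55e-07). Dpysl3 rose by 4.39 ± 0.17 (limma adjusted p = 8.56e-09), and Rin3 by 5.89 ± 0.53, or 5.23 without freshly isolated replicate 1 and 6.60 without replicate 2. Igsf11 rose to 6.33 ± 0.577 in myotubes, against 0.667 in freshly isolated cells, both within a few reads of 0.

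The 13 members that were lower in myotubes than in freshly isolated cells were Fibcd1, Lgr6, Cspg4, Alcam, Tfap4, Hmga1, Gclm, Epb4.1l1, Timeless, Mthfd1l, Arnt2, Cxcl12 and Vars. Fibcd1 fell to 3.67 ± 2.08 in myotubes, against 49.7 ± 21.1 in freshly isolated cells, a log2 change of -3.46 ± 0.43 (SE, limma adjusted p = 3.22e-05). Cspg4 fell to 162 ± 14.5, against 398 ± 23.8 (log2 change -1.29 ± 0.13, limma adjusted p = 7.73e-06), and Alcam fell to 56.7 ± 21.1, against 128 ± 7.37 (-1.22 ± 0.28, limma adjusted p = 0.00238). Hmga1 changed by -1.04 ± 0.25 while its relative Hmga2 was among the genes that rose. The myotube and freshly isolated libraries did not overlap for Fibcd1, Cspg4, Alcam and Hmga1, but they did for Arnt2, Cxcl12 and Vars. The call of Vars, a tRNA synthetase gene, was lost under 11 of the 20 alternative fits. Its log2 change of -0.48 (limma adjusted p = 0.039) became -0.25 once the first freshly isolated library was left out. The calls of Cxcl12 and Lgr6 were lost without single libraries as well, those of Cxcl12 without freshly isolated replicate 2 or 3 or myotube replicate 1 or 3, and those of Lgr6 without myotube replicate 1 or 2. Among the genes called higher, Trp53i11 lost its call without myotube replicate 2.

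Other members with high peaks were not called in either direction with all libraries. Selp had a log2 change of -0.25 ± 0.74 in myotubes against freshly isolated cells (SE, limma adjusted p = 0.774), Adgrg3 0.09 ± 0.65 (limma adjusted p = 0.904), Itgb4 -0.03 ± 0.18 (limma adjusted p = 0.888) and Met -0.13 ± 0.16 (limma adjusted p = 0.476). The errors of Selp and Adgrg3 allow changes of several-fold in either direction, those of Itgb4 and Met far less. Thbs1 differed by 0.22 ± 0.13 (limma adjusted p = 0.156). Leaving out freshly isolated replicate 1 brought calls for Met, Thbs1 and Sp7. Met was then at -0.30 (limma adjusted p = 0.0364), Thbs1 at 0.37 (limma adjusted p = 0.00477) and Sp7 at 2.52, against 1.55 with all libraries.

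**Figure D4:**
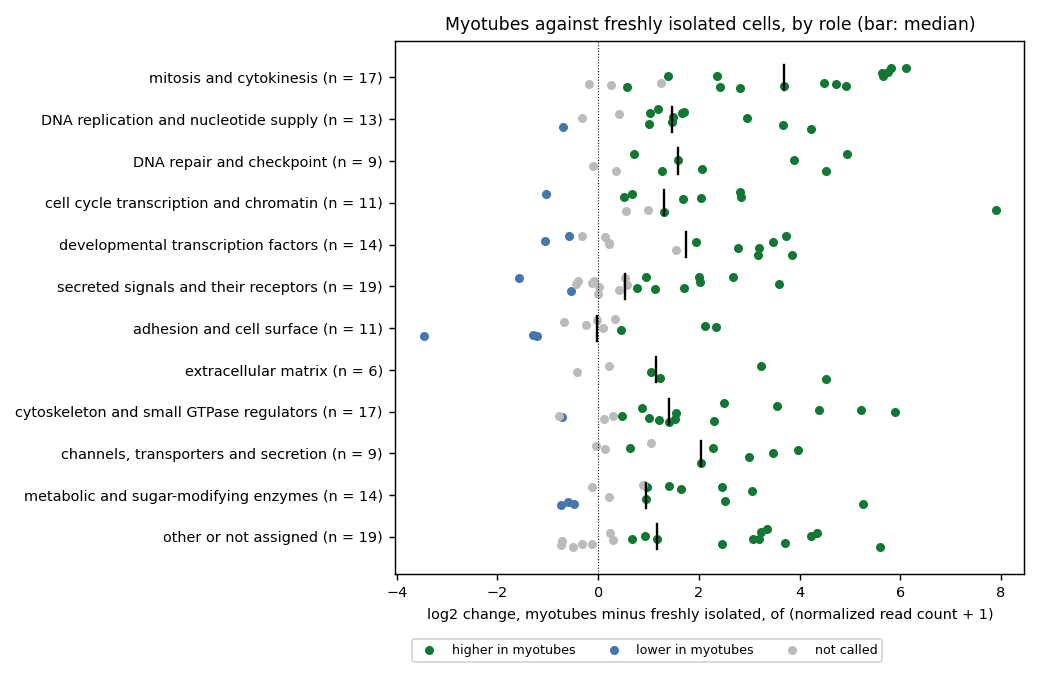
Each point is 1 member, placed by the log2 change (myotubes minus freshly isolated cells, 1 added to each value) and grouped by role, with a bar at the group median. Green points were called higher in myotubes, blue ones lower, and grey ones were not called; members listed at 0 in freshly isolated cells are at their fitted values. The mitosis group has its median at 3.70 and no blue point, and the adhesion group has its median near 0.

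Within the proliferating stage, replicate 1 was the highest of the 3 libraries in 122 of the 159 members, or 76.7%, and in 3139 of the 8974 other genes at that level, or 35.0%. This order was found in 40 of the 50 cell cycle members and in 82 of the 109 others. The rule used the mean of these 3 libraries, so a high replicate 1 could help a gene become a member. Without that library the rule gave 149 members, 145 of them among the 159. The distance to other genes is thus shaped by the choice of members. The median ratio of replicate 1 to the mean of replicates 2 and 3 was 1.16 for members and 0.990 for other genes. The highest proliferating library was at least 1.5 times the lowest in 41 members, 37 of them outside the cell cycle groups. In Selp replicate 1 was 312 and replicate 2 153, in Lgr6 301 and 59, in Tnc 7362 and 4092 and in Hmga2 5033 and 2380. Proliferating replicate 1 also had the lowest sum of differentiating muscle markers, 10130, and replicate 2 the highest, 56670. The part of differentiating cells in this order was not tested.

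In myotubes, replicate 2 was the highest library in 121 members, or 76.1%, and in 49 of the 50 cell cycle members, against 38.4% of other genes. Myotube replicate 2 had the lowest sum of differentiating muscle markers of its stage, 535814, against up to 643162. Its part in the order was not tested either. With other scalings of the libraries the counts were 120 to 122 members for proliferating replicate 1 and 121 to 125 for myotube replicate 2. In freshly isolated cells no library was the highest in more than 49.1% of members.

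**Figure D5:**
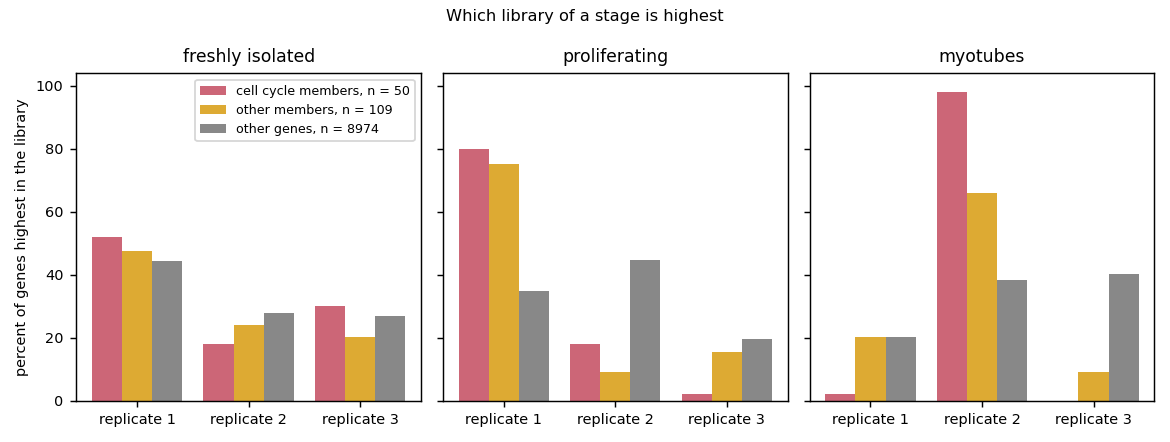
Percent of genes whose highest value at a stage lies in replicate 1, 2 or 3, for the 50 cell cycle members (red), the 109 other members (yellow) and the 8974 other genes at the same proliferating level (grey), with 1 panel per stage. Proliferating replicate 1 is highest for 80.0%, 75.2% and 35.0% of the 3 sets, and myotube replicate 2 for 98.0%, 66.1% and 38.4%.

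Genes outside the 159 but on lists of the same pathways show how far the pattern reached. All 37 other genes on the DNA replication list were higher in proliferating than in freshly isolated cells and 32 were lower in myotubes than in proliferating cells (limma), against 37.6% and 25.5% of all genes tested. Both counts include Mcm3, Mcm4, Mcm5, Mcm6 and Mcm10, which met both 4-fold criteria and were left out by name only. All 36 other genes on the list of spindle and cytokinesis were higher in proliferating cells, and 27 were lower in myotubes. Of the 22 other mitotic kinases and their regulators 20 were higher and 2 lower in proliferating cells, and 18 were lower in myotubes. Of the 28 other kinetochore genes 28 were higher and 19 lower in the same comparisons, and of the 9 cyclins, none of them a member, 9 and 7. Some of the best known dividing-cell genes were outside the rule on the myotube side. Ccna2, the cyclin of S phase and G2, kept 31.0% of its proliferating mean in myotubes, Top2a, the topoisomerase of mitotic chromosomes, 40.0%, and Mki67, the common marker of dividing cells, 41.8%. Mki67 averaged 10000 ± 2900 in myotubes and 23940 ± 1480 in proliferating cells (SD, n = 3 each, log2 change -1.30 ± 0.54, limma adjusted p = 0.0671). Its lowest proliferating library, 22495, was above its highest myotube library, 13203. The model gives a gene 1 error for all stages, so that of Mki67 includes its freshly isolated spread (471, 66 and 163). Cdk1 was likewise not called, at 2910, 3351 and 3016 in proliferating cells and 1000, 1325 and 979 in myotubes. The counts of genes lower in myotubes leave such genes out. Cell cycle members stood at 8.69% to 24.7% in myotubes, which the rule bounds.

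Lists of the surface and signalling families gave other counts. Over all genes tested, 37.6% were higher in proliferating cells and 35.7% in freshly isolated cells, and several of the counts here lie near those shares. Of 21 other adhesion molecules of the immunoglobulin, selectin and cadherin families, 9 were higher in proliferating cells and 8 in freshly isolated cells. Of 16 other adhesion G protein-coupled receptors 2 were higher and 8 lower in proliferating cells. Of 25 other growth factors and cytokines 7 were higher and 15 lower. Vegfa, a vascular growth factor, was 3823 ± 484 in proliferating and 5749 ± 1850 in freshly isolated cells. Spp1, or osteopontin, was not called between myotubes and proliferating cells, at 7952 ± 1570 and 8736 ± 2180 normalized read counts (SD, n = 3 each, limma adjusted p = 0.903). Of 21 other genes of the ATF4 and amino acid response 13 were higher and 6 lower. Atf4 itself was 8333 ± 515 in proliferating and 11630 ± 1010 in freshly isolated cells, lower at limma adjusted p = 0.00185.

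The members were spread over all 19 autosomes, from 2 on chromosomes 14 and 18 to 16 on chromosome 2. Only 6 pairs lay within 200 kb of each other: Espl1 and Sp7, Mybl2 and Tox2, Sdc3 and Laptm5, Palb2 and Plk1, Fanca and Tubb3, and Fut4 and 1700012B09Rik. The closest pair, Fut4 and 1700012B09Rik on chromosome 9, was 4.19 kb apart, and Palb2 and Plk1 on chromosome 7 were 26.5 kb apart. Exons of another gene overlap 51 members on the opposite strand.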

How the data were processed

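Per the labels' protocols, libraries were stranded and made from 100 ng of RNA after removal of ribosomal RNA. STAR 2.4.0a, featureCounts 1.4.5-p1 (Subread) and the build mm10 (GRCm38) are named in the submitters' processing notes. The deposited table holds a score for each gene and library, a read count scaled between libraries and rounded by the authors, here called the normalized read count. The tool of that scaling and the strand setting are not given in the sources used here. Columns prefixed P and D match the proliferating and differentiated labels, and those prefixed Q were taken as freshly isolated by elimination.

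Because the values are scaled, no test on counts was run. The 17291 genes that reached 10 in 3 or more libraries were compared on the log2(value + 1) scale in 1 limma model (3.58.1, R 4.3.3, mean-variance trend) of the 9 libraries, with Benjamini-Hochberg adjusted p below 0.05 as a call. P-values measure the spread between samples of different animals. Other work used Python 3.11.15, pandas 2.3.3, numpy 2.4.6 and matplotlib 3.10.9. Positions and exons are from GENCODE vM21 (45143 genes matched), promoter windows from RefSeq. TMM and median-of-ratios factors were computed for the alternatives.

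Members, role groups, motifs and pathway lists were chosen with earlier results of these data known. Genes were named by a rule: 4 genes given with the set, the 20 with the largest smaller ratio, the 10 highest in proliferating cells, up to 6 members per list, the 8 largest called changes in each direction between myotubes and freshly isolated cells, the genes nearest the threshold on each side, and up to 2 genes per list that are not members. Names ending in Rik were taken from the second of these only. Other genes were named after their values were seen, and some members are not reported here by name. Alternatives varied the pseudocount, filter, scaling, model, libraries and the thresholds of the rule.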

Additional observations from a re-analysis of the deposited data

How the results depend on the processing

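Of the counts reported, the number of members moved with the fold of the rule, to 310 at 3-fold and 57 at 6-fold, because the threshold itself decides it. It was 143 to 190 when each library was left out in turn, with the extremes without myotube replicates 3 and 2. Members called in myotubes against freshly isolated cells numbered 89 to 114 higher and 10 to 18 lower over the 20 alternative fits. Deviations of same-numbered libraries correlated at -0.0338 to 0.0270, and those of differently numbered libraries at -0.0575 to 0.0585. Since the first range lies within the second, this check cannot decide whether the replicate numbers pair the samples. With a replicate block 101 members were higher and 13 lower. Of 76 named members with a value 61 were called, and 52 of these kept their call under all 20 alternatives. The other 9, among them Adgra1, Cxcl12, Dnmt1, Il18rap, Lgr6, Ptprn, Trp53i11 and Vars, lost it under at least 1, and the cause was not tested. Of the 61, 15 moved by over 1.5-fold without 1 library, among them Plk1, Aurka, Aurkb, Rin3 and Trip13. Of the 15 that were not called, 10 were called under at least 1 alternative: Ano1, Cdc25b, Cldn4, Dock8, Fam19a5, Met, Sema7a, Sp7, Thbs1 and Tmem200c. The log2 change of 7 members that were not called changed sign. With libraries left out Selp ranged over -1.133 to 0.53 (0.53 without freshly isolated replicate 2), and was 0.019 without myotube replicate 3. Adgrg3 was -0.012 with pseudocount 5 and ranged over -0.47 to 0.91, with -0.47 and -0.17 without freshly isolated replicates 2 and 3, and -0.31 without myotube replicate 2. Ano1 was -0.13 with pseudocount 5 and ranged over -0.69 to 1.31, with -0.19 and -0.69 without freshly isolated replicates 2 and 3. Angpt2 ranged over -0.25 to 0.12, with 0.12 and 0.089 without freshly isolated replicates 2 and 3, and 0.042 without myotube replicate 1 or 3. Cldn4 ranged over -0.21 (without freshly isolated replicate 3) to 1.16, Sema7a over -0.056 (without freshly isolated replicate 2) to 1.29 and Brca2 over -0.33 to 0.034 (without myotube replicate 3). Depth limits the low side of the peaks: 1 read was worth up to 2.18 units, so values of a few units in freshly isolated cells and myotubes are 1 to a few reads.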

Other observations

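Some genes outside the protein-coding autosomal set met the same level and fold criteria. On the X chromosome they were Apln, Dusp9, Rps6ka6, Mbnl3 and Hmgb3. Apln, which codes for the vascular peptide apelin, had 17, 0 and 8 normalized read counts in freshly isolated cells, 494, 421 and 466 in proliferating cells and 16, 19 and 8 in myotubes. Dusp9, a phosphatase of MAP kinases, had 0, 27 and 7, then 537, 373 and 391, and then 20, 15 and 30 at the same stages. Their proliferating means were 30.1 and 19.2 times the myotube means, 1 added to each, against 52.8 for Adgrg3 and 59.7 for Igsf11.

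Another 6 autosomal genes that are not protein-coding met both criteria: 9230105E05Rik, RP23-63A19.3, 1700006J14Rik, Gm2115, AU020206 and Runx2os2. The gene 1700006J14Rik lies antisense to Hmga2, and Runx2os2 is named as antisense to Runx2, both of them members. Runx2os2 had 11, 0 and 9 in freshly isolated cells, 128, 109 and 80 in proliferating cells and 10, 18 and 16 in myotubes. Without a stated strand setting, reads of these pairs cannot be told apart.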
